A study of Mus musculus with 10 samples.

Results

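The lysyl oxidases (Lox, Loxl1, Loxl2, Loxl3 and Loxl4), the lysyl hydroxylases (Plod1, Plod2 and Plod3) and the catalytic subunits of prolyl 4-hydroxylase (P4ha1 and P4ha2) were examined as 10 named genes among the 49568 genes measured by mRNA sequencing in mouse pancreatic cancer cell lines. The genes were chosen by name and family, though with earlier results of these data known. Each of the 10 had enough reads to be tested, among 13089 tested genes in all. The lines are 5 labelled KPC (A1081, A1620, A1625, A2031 and A2032) and 5 labelled KPCAf/f (A1693, A1809, A1925, A2441 and A3992). The name KPC usually denotes a genetically engineered mouse model of pancreatic cancer, and the labels spell out neither its alleles, the Cre nor the age of the animals. The series title names Arid1a, and the suffix Af/f is taken to stand for floxed alleles of it. All lines were cultured in serum-containing medium, with no treatment given in the labels. One library was made per line, giving n = 5 per genotype. Whether the lines came from separate animals is not in the labels, so the p-values cover only the spread among these lines.

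Collagen chains are modified before and after they leave the cell. In the endoplasmic reticulum, prolyl 4-hydroxylase adds the hydroxyl groups that make the triple helix stable at body temperature, and lysyl hydroxylases hydroxylate lysines of the chains. Outside the cell the copper-dependent lysyl oxidases convert lysines and hydroxylysines of collagen, and lysines of elastin, to aldehydes that form covalent cross-links, and in pancreatic cancer this cross-linked matrix is known as a large part of the stiff stroma.

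The deposited values are read counts normalized for library size, from libraries of 15124888 to 20419830 reads, where 1 read corresponds to 0.818 to 1.32 normalized counts. Arid1a itself ranged from 820 (A1620) to 3109 in KPC and from 1253 to 1785 in KPCAf/f (limma adjusted p = 0.563). Its gene-level count holds exons outside any deleted part, so that it does not check recombination. KPC line A1620 stood apart by a slope of -0.54 in log2 level for each doubling of exonic gene length, where the other lines had slopes from -0.02 to 0.16. In KPCAf/f line A1693 the pancreatic homeobox gene Pdx1 was at 2.70 normalized counts, with 10.8 of E-cadherin (Cdh1), against at least 594 and 3143 in the other lines, so that these defining markers of the labelled origin were nearly absent there. The 4 Y-linked genes looked up had 1148 to 3415 reads together in each KPC line and 0 to 3 in each KPCAf/f line, and genotype and Y-linked expression cannot be told apart in this design.

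Among the 10 enzyme genes, 3 lysyl oxidases rose in KPCAf/f and no gene fell. Lox, Loxl1 and Loxl3 were at or below 55.9 normalized counts in the KPC lines and reached at least 242 normalized counts in every KPCAf/f line. The calls are from limma with Benjamini-Hochberg adjustment over all tested genes at a threshold of 0.05, which called 1.36% of genes higher and 0.39% lower in KPCAf/f. These 3 were also the only members whose genotypes did not overlap, with KPCAf/f higher, as was the case for 2.84% of tested genes. None of the 5 hydroxylase genes passed the test, nor with edgeR, DESeq2 or limma-voom on recovered reads. An unadjusted p under 0.05 was reached by 5 of the 10 members, the 3 called genes with Plod1 and Plod2, where 14.6% of tested genes reached it. Fold changes below are KPCAf/f over KPC, from log2(normalized count + 1), a scale that understates changes of genes near 0. The median log2 fold change was 0.80 over the 10 members and -0.01 over all tested genes.

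**Figure D1:**
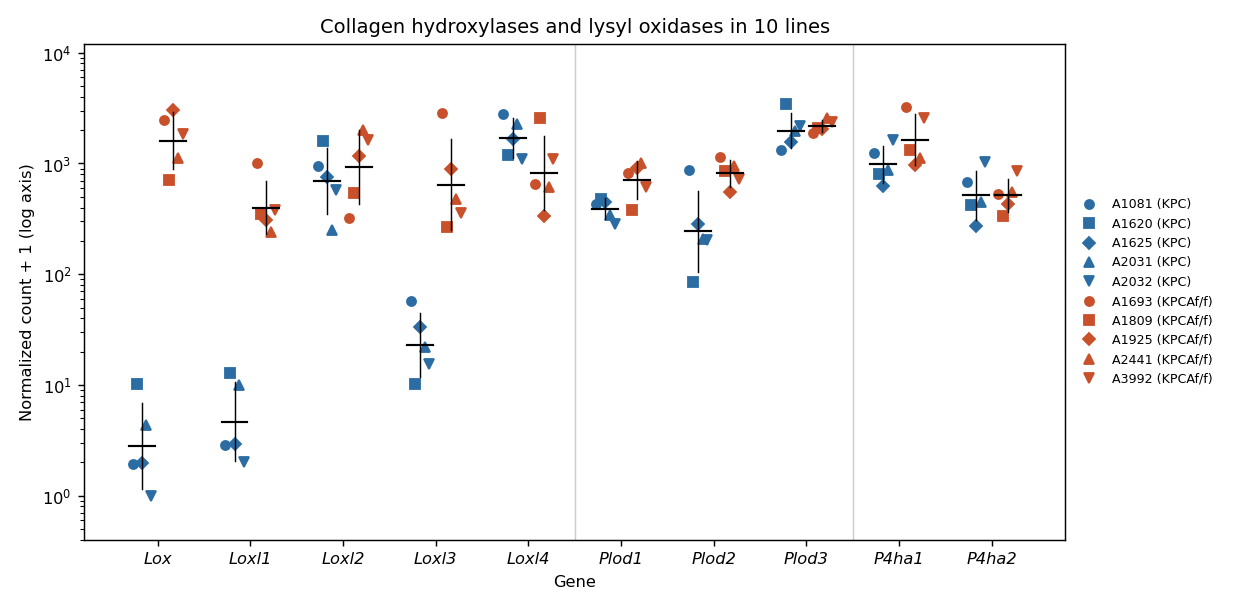
Normalized count + 1 (log axis) of each gene in each line, with blue symbols for the 5 KPC lines and red-orange symbols for the 5 KPCAf/f lines. Horizontal bars are means of log2 values and vertical bars 1 SD. Lox, Loxl1 and Loxl3 separate the genotypes, with KPC lines at or below 55.9 normalized counts and KPCAf/f lines at or above 242.

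**Figure D2:**
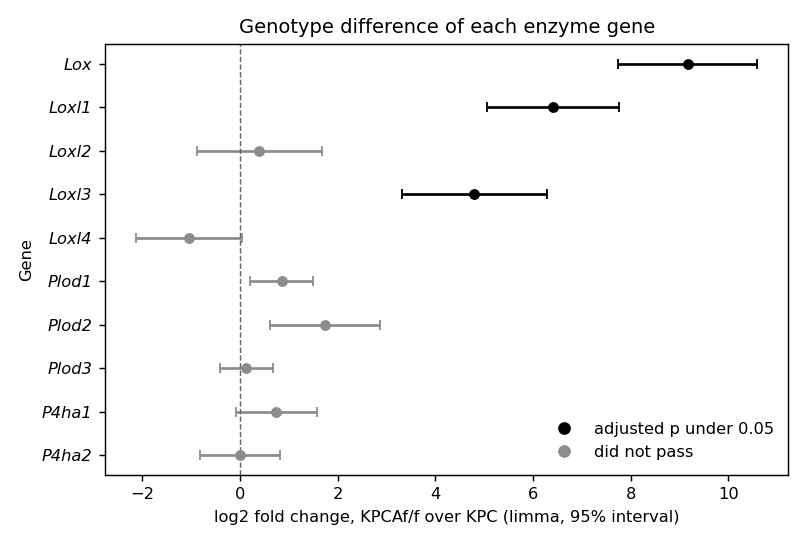
The log2 fold change of each gene, KPCAf/f over KPC, with its 95% limma interval, black where the adjusted p was under 0.05 and grey otherwise. The intervals of Lox, Loxl1 and Loxl3 lie above 3.3, while those of Loxl2, Loxl4, Plod3, P4ha1 and P4ha2 include 0.

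Lox, the founding lysyl oxidase of fibrillar collagen and elastin, had 0.947, 9.27, 0.978, 3.35 and 0 normalized counts in KPC lines A1081, A1620, A1625, A2031 and A2032, which is 12 reads in all. In KPCAf/f lines A1693, A1809, A1925, A2441 and A3992 it had 2463, 703, 3065, 1119 and 1826. Every KPCAf/f line was therefore above every KPC line, with A1925 highest and A1809 lowest. Group means stood 631 times apart, at 2.91 ± 3.77 and 1835 ± 962 (SD, n = 5 each), and the log2 fold change was 9.17 (SE 0.65, limma adjusted p = 4.17e-05). Without A1620 the KPC mean was 1.32 and the ratio 1391, and over the other settings the log2 fold change ran from 7.78 (pseudocount of 5) to 9.64. In bulk RNA, fewer cells with the transcript and less of it per cell cannot be told apart. Lox passed the expression filter only through the KPCAf/f lines, which alone reached 10 normalized counts, and a gene of that kind could differ in 1 direction alone. Its position is chromosome 18, 52516067 to 52529867, minus strand (GENCODE M21, GRCm38, as for the other genes).

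Loxl1, a lysyl oxidase needed for elastic fibre upkeep, had 1.89, 11.9, 1.96, 8.94 and 1.03 normalized counts in the same order of KPC lines, or 22 reads. It had 1012, 347, 309, 242 and 377 in the KPCAf/f lines. A1693 stood highest, and the other 4 KPCAf/f lines lay close together at 319 ± 58.4 (SD, n = 4). With means of 5.15 ± 4.95 and 457 ± 314 (n = 5 each), the log2 fold change was 6.41 (SE 0.62, limma adjusted p = 0.000412). Apart from A1620, no KPC line reached 10 normalized counts, so that this gene too passed the filter almost wholly through KPCAf/f. Its position is chromosome 9, 58287738 to 58313186, minus strand.

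Loxl3, a lysyl oxidase with scavenger receptor domains, was detected in each KPC line, at 55.9, 9.27, 32.3, 21.2 and 14.4 normalized counts. It had 2833, 265, 887, 472 and 353 in the KPCAf/f lines. A1693 was the highest line here as well, and the KPCAf/f mean was 962 ± 1073 with it (n = 5) and 494 ± 275 without it (n = 4). It rose by a log2 fold change of 4.80 (SE 0.67, limma adjusted p = 0.00358), and 4.27 without A1693 (limma adjusted p = 0.0039). With limma-voom on recovered reads the call was lost at a log2 fold change of 4.80 (adjusted p = 0.0660). Exons of Loxl3 share 535 bases with Htra2 on the opposite strand, and the strand setting of the count is not given in the sources used here. In KPC, Htra2 stood at 1382 ± 445 normalized counts, and in KPCAf/f at 1561 ± 452 (limma adjusted p = 0.744), and its part in the Loxl3 reads was not tested. Loxl3 is on chromosome 6, 83034173 to 83052562, plus strand.

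Loxl2 and Loxl4, the lysyl oxidases with the closest domain layout to Loxl3, were abundant in lines of both genotypes. Loxl4 had 2826, 1183, 1670, 2283 and 1091 normalized counts in the KPC lines and 653, 2592, 336, 609 and 1097 in the KPCAf/f lines. KPCAf/f lines A1693, A1925 and A2441 lay below every KPC line, A3992 sat at the bottom of the KPC range, and A1809 was near its top. Its log2 fold change of -1.04 had a 95% interval of -2.12 to 0.05 and did not pass (limma adjusted p = 0.363). Without A1809 it was -1.45 (limma adjusted p = 0.0910). Loxl2, known both as a collagen IV cross-linker and for a role inside the nucleus, had 957, 1597, 747, 251 and 572 in KPC and 323, 540, 1159, 1995 and 1638 in KPCAf/f. Its genotypes overlapped over most of their range, with a log2 fold change of 0.40 and an interval of -0.88 to 1.68 (limma adjusted p = 0.765). Loxl2 lies on chromosome 14 at 69609068 to 69695834 (plus strand) and Loxl4 on chromosome 19 at 42593982 to 42612813 (minus strand).

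The make-up of the lysyl oxidase family differed between the genotypes. Levels of different genes are compared here only per kilobase, as normalized counts divided by the total exonic length of the gene, and a share is a gene's part of the summed family level in 1 line. In KPC, Loxl4 held 72.1% ± 15.5 (SD, n = 5) of the family level and Loxl2 26.6% ± 15.6, whereas Lox held 0.102% ± 0.136, Loxl1 0.267% ± 0.254 and Loxl3 0.935% ± 0.429. In KPCAf/f, Lox held 31.4% ± 13.9, Loxl4 22.9% ± 21.7, Loxl2 19.5% ± 14.3, Loxl3 15.3% ± 12.9 and Loxl1 10.9% ± 4.45. No single enzyme led in all KPCAf/f lines. Lox was the largest in A1925 (52.5%) and A3992 (33.6%), Loxl3 in A1693 (37.2%), Loxl2 in A2441 (40.0%) and Loxl4 in A1809 (60.0%). In the KPC lines Loxl4 was the largest except in A1620, where Loxl2 held 50.6% and Loxl4 48.1%. Without A1809 the KPCAf/f mean share of Loxl4 was 13.6%, and without A1620 the KPC mean share of Lox was 0.0446%. Summed over the family, the level per kilobase was 368 to 861 in KPC lines and 924 to 1653 in KPCAf/f lines.

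**Figure D3:**
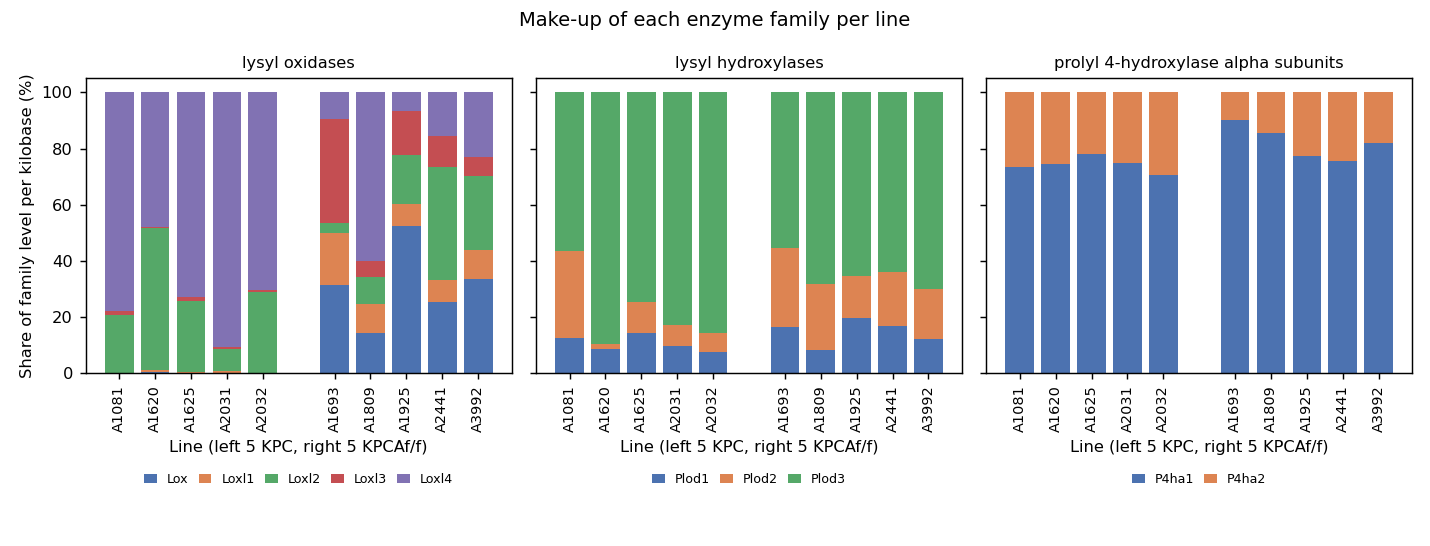
Stacked bars give each gene's share (%) of its family's summed normalized count per kilobase in each line, with 5 KPC lines on the left and 5 KPCAf/f lines on the right of each panel. Lysyl oxidases of KPC lines were nearly all Loxl4 and Loxl2, while each KPCAf/f line held at least 14.4% Lox. Plod3 and P4ha1 were the largest part of their families in each of the 10 lines.

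Of the lysyl hydroxylases, Plod2 showed the widest difference. Plod2 hydroxylates lysines of the collagen telopeptides, the ends where cross-links form. It had 864, 83.5, 281, 208 and 202 normalized counts in the KPC lines and 1136, 850, 546, 939 and 716 in the KPCAf/f lines. KPC line A1081 lay inside the KPCAf/f range, and the other 4 KPC lines lay below it. Its log2 fold change of 1.73 (SE 0.51, 95% interval 0.61 to 2.86) did not pass over all genes (limma adjusted p = 0.141). Without A1081 it was 2.19 and passed (limma adjusted p = 0.0187). In KPCAf/f the log2 values had an SD of 0.40, against 1.21 in KPC.

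Plod1, which hydroxylates lysines in the helical part of the chain, had 432, 477, 449, 341 and 284 normalized counts in KPC and 817, 379, 907, 1005 and 618 in KPCAf/f. All KPCAf/f lines except A1809 were above every KPC line. Its log2 fold change was 0.86 (SE 0.29, 95% interval 0.21 to 1.5, limma adjusted p = 0.205), and with weights for line quality it was 1.01 and passed (limma adjusted p = 0.0453). Plod3, which also glycosylates hydroxylysine, had 1313, 3428, 1573, 1958 and 2185 in KPC and 1869, 2086, 2030, 2584 and 2365 in KPCAf/f. The KPCAf/f lines lay within the KPC range, and the log2 fold change of 0.14 had an interval of -0.41 to 0.68 (limma adjusted p = 0.814). Plod3 shares 529 exonic bases with Znhit1 on the opposite strand, and A1620 was the highest line for both, with 2358 normalized counts of Znhit1. Per kilobase Plod3 was the largest lysyl hydroxylase in each line, at 463 ± 181 in KPC and 484 ± 63.1 in KPCAf/f (n = 5 each). The Plod2 share of the family was 11.6% ± 11.4 in KPC and 20.7% ± 5.23 in KPCAf/f, and 6.76% in KPC without A1081. Plod1 lies on chromosome 4 at 147909753 to 147936767 (minus strand), Plod2 on chromosome 9 at 92542223 to 92608428 (plus strand) and Plod3 on chromosome 5 at 136987019 to 136996648 (plus strand).

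P4ha1 and P4ha2 encode alternative catalytic subunits of prolyl 4-hydroxylase, and neither passed the test. Both are textbook targets of the hypoxia-inducible factors, which bind a short core of ACGTG or GCGTG. The 250 bases before the RefSeq start of each gene (GRCm38.p6) are shown because the levels of this pair varied together, most closely among the KPC lines. Neither window overlaps an annotated exon of any member, and exons of other genes were not looked up. The window of P4ha2 lies inside the GENCODE span of the gene, which begins further upstream. Capitals mark the cores ACGTG and GCGTG on either strand (CACGT and CACGC on the strand shown).

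P4ha1 (chr10:59323046-59323295, plus strand): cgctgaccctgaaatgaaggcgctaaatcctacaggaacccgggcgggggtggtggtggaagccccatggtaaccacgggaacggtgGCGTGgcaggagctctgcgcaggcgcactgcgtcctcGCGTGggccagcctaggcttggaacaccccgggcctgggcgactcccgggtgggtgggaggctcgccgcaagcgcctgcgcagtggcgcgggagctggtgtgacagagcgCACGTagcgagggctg
P4ha2 (chr11:54100674-54100923, plus strand): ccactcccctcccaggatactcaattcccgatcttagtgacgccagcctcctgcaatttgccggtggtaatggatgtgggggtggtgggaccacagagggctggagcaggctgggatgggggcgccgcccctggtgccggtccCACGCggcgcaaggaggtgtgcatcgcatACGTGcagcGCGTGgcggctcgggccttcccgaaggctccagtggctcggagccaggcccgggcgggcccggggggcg

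Each promoter held 1 ACGTG and 2 GCGTG cores. Among the 32851 promoters of the same length in the RefSeq table, 16.6% held ACGTG, 28.2% held GCGTG and 6.1% held both. The promoter of Plod3 held 1 ACGTG and 3 GCGTG, and those of Plod1 and Loxl4 held 1 GCGTG each and no ACGTG. No AP-1 site TGANTCA and no E-box CACCTG, on either strand, was found in these 5 promoters, where 6.7% and 17.2% of all promoters held one. Such matches describe the letters of the window and are not binding sites.

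P4ha1 had 1235, 805, 628, 876 and 1637 normalized counts in the KPC lines and 3251, 1316, 970, 1125 and 2575 in the KPCAf/f lines. A1693 and A3992 were above every KPC line, and the other 3 KPCAf/f lines lay within the KPC range. The log2 fold change was 0.75 (SE 0.38, 95% interval -0.09 to 1.59, limma adjusted p = 0.392). P4ha2 had 684, 419, 269, 450 and 1035 in KPC and 532, 335, 429, 549 and 855 in KPCAf/f. All KPCAf/f lines lay within the KPC range, and the log2 fold change of -0.00097 had an interval of -0.82 to 0.82 (limma adjusted p = 0.999). Per kilobase P4ha1 exceeded P4ha2 in every line, by 2.40 to 3.54 times in KPC and by 3.11 to 9.27 times in KPCAf/f, and with longest transcripts by up to 1.77 and 4.62 times. Per kilobase the P4ha2 share of the pair was 25.8% ± 2.67 in KPC and 17.8% ± 5.97 in KPCAf/f. This share depends on the length used for P4ha2, whose exons sum to 6239 bases over 15 annotated transcripts while its longest transcript has 3060. With longest transcripts it was 41.0% and 29.9%. P4ha1 lies on chromosome 10 at 59323296 to 59373304 and P4ha2 on chromosome 11 at 54100095 to 54131665, both on the plus strand.

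Within genotypes some of the enzymes varied together. The correlations below are descriptions over the 10 lines, of log2 values after each genotype's mean was subtracted, and the values of a line come from 1 library. P4ha1 and P4ha2 had a Pearson r of 0.73, and 0.88 over the 8 lines without A1620 and A1693. Their orders differed among KPCAf/f lines, where A2441 was next highest for P4ha2 and next lowest for P4ha1. The KPC lines stood in the same order for both genes. In KPC both were highest in A2032 and next in A1081, which were also the KPC lines with the highest mean log2 level of 23 hypoxia response genes (10.78 and 10.34, against 9.44 to 9.65 in the other 3). The KPCAf/f lines followed that order only in part. A1809 had the highest mean of the hypoxia genes there (10.17) with the lowest P4ha2, and A1693 had the highest P4ha1 at a mean of 9.89. A3992, with the next highest mean (10.11), had the highest P4ha2 and the next highest P4ha1. A1925 had the lowest mean (9.80) and the lowest P4ha1. The hypoxia list also holds the factor genes Hif1a, Epas1 and Arnt, and a link between hypoxia and this pair was not tested. Lox and Loxl1 had an r of 0.79 (0.65 without A1620 and A1693), both at fewer than 12 normalized counts in each KPC line. Plod2 and Plod3 had an r of -0.85 (-0.67 without A1620 and A1693), and they ran opposite in KPC, where their orders of lines were reversed. In KPCAf/f the orders were mixed. A1693 had the most Plod2 and the least Plod3 there. A2441 had the most Plod3 (2584) with the next most Plod2 (939), and A1925 the least Plod2 with the next to least Plod3. A1620 had the most Plod3 and the least Plod2 of all lines, with a per-kilobase Plod3 to Plod2 ratio of 49.0, and A1081 the least Plod3 and the most Plod2 among KPC lines, with a ratio of 1.81. The ratio was 1.96 to 4.43 in KPCAf/f.

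**Figure D4:**
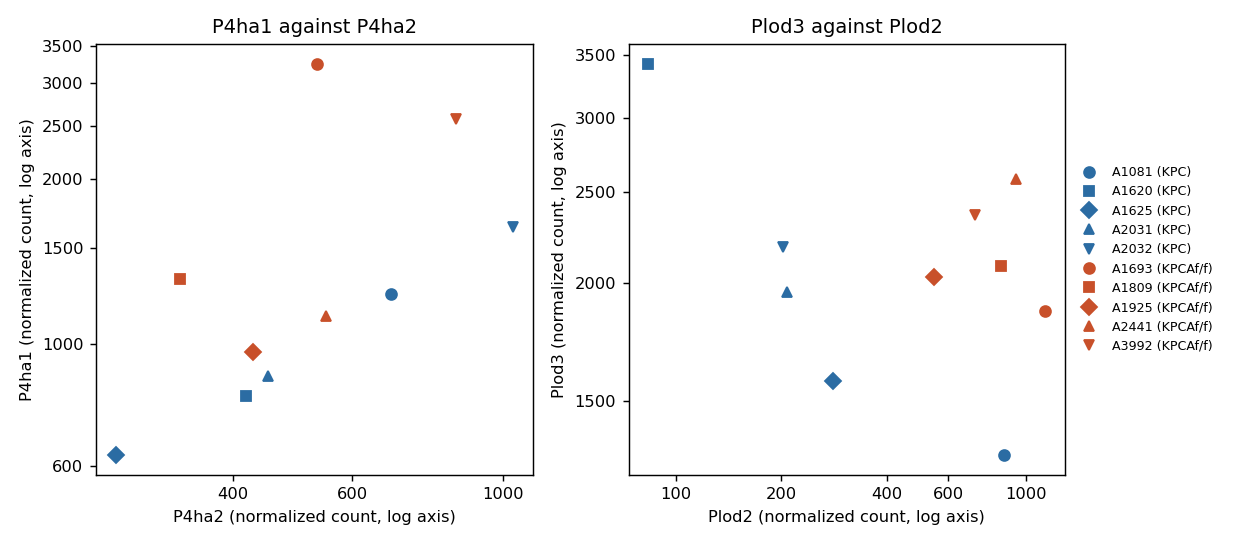
Normalized counts (log axes) of P4ha1 against P4ha2 and of Plod3 against Plod2, 1 symbol per line, with blue for KPC and red-orange for KPCAf/f. KPC lines stand in the same order for P4ha1 and P4ha2, with A1625 lowest for both. Among KPCAf/f lines the orders differ, with A3992 highest for P4ha2 and A1693 for P4ha1. KPC line A1620 sits alone at the upper left of the Plod panel, at 83.5 normalized counts of Plod2 and 3428 of Plod3.

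For each member, the genes with the most similar within-genotype pattern were named by their Pearson r over the 10 lines. The r is a maximum over tested genes outside every list used here, those of hypoxia response and cell type markers included. Symbols starting with Gm plus digits, ending in Rik or with a pseudogene suffix were also left out. Closer genes among those left out are therefore not shown. The named genes were Mettl6 (0.95) and Tmeff2 (0.94) for Lox, Cdk9 (0.94) and B3gntl1 (0.93) for Loxl1, and Prph (0.97) and Hist3h2a (0.95) for Loxl2. Loxl3 was closest to Wasf1 (0.97) and Igf2bp2 (0.93), and Loxl4 to Ap1s3 (0.96) and Morc4 (0.95). Among the hydroxylases, Plod1 was closest to Cmtm3 and Rab3il1 (0.95 each), Plod2 to Amot (0.96) and Zfp40 (0.95), and Plod3 to Apopt1 and Fbxl6 (0.98 each). P4ha1 was closest to Ak4 (0.91), an adenylate kinase, and Parn (0.90), and P4ha2 to Lrrc61 (0.97) and Nt5e (0.94). Within KPC, 7 of 10 members had a log2 SD among lines above the median of all tested genes (0.57), and within KPCAf/f 8 of 10 did (median 0.44). The exceptions in KPCAf/f were Plod2 at 0.40 and Plod3 at 0.19. As many tested genes lie above a median as below it, so that with 10 genes these counts alone show no trait of the members. In KPC, the SDs of Lox (1.29) and Loxl1 (1.19) rest on 12 and 22 reads in all.

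Of 76 tested genes on other lists of the pathway, 12 rose in KPCAf/f and 0 fell (limma over all genes), and the median log2 fold change was 0.27. Of the 12, 6 had passed the filter only through KPCAf/f lines (Col1a2, Col3a1, Col5a3, Col11a1, Adamts2 and Fbln5) and could differ in that direction alone. The 12 were collagen chains, procollagen N-proteinases and proteins of elastic fibres and matrix, while no gene of the intracellular modification and folding lists passed with limma. These lists were written from knowledge of collagen biology with earlier results of these lines known, and give no independent support for a direction.

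Among 8 other genes of prolyl hydroxylation, 0 passed (median log2 fold change 0.01). P3h3, a prolyl 3-hydroxylase, averaged 41.5 ± 12.7 in KPC and 278 ± 307 in KPCAf/f, in normalized counts and without overlap (limma adjusted p = 0.0964). P3h1, the prolyl 3-hydroxylase of the complex with Crtap, was at 381 ± 69.3 and 654 ± 256 (adjusted p = 0.328). P4hb, the disulfide isomerase that is the other subunit of prolyl 4-hydroxylase, was at 21282 ± 1242 and 15891 ± 4218 (log2 fold change -0.47, adjusted p = 0.384), with every KPCAf/f line below every KPC line, as for 1.69% of tested genes. P4ha3, the third catalytic subunit, had 71.0, 6.62, 74.4, 151 and 67.0 in KPC and 29.7, 21.3, 400, 79.8 and 144 in KPCAf/f (adjusted p = 0.788). Its genotypes overlapped, and A1925 had the most. An unadjusted p under 0.05 was reached by 2 of the 8, and DESeq2 called 1, P3h3, while edgeR and limma-voom called 0.

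None of 3 tested genes of lysine glycosylation and lysyl hydroxylase support passed. The 2 with the smallest p were Fkbp10, a chaperone that assists Plod2, at 1107 ± 991 and 2126 ± 1137 normalized counts in KPC and KPCAf/f (limma adjusted p = 0.470), and Colgalt1, a collagen galactosyltransferase, at 5141 ± 1031 and 4461 ± 1530 (adjusted p = 0.664). Of 8 folding and export genes 0 passed. Serpinh1, the collagen chaperone HSP47, was at 3210 ± 1311 and 8830 ± 4319 without overlap (log2 fold change 1.46, adjusted p = 0.126), and Fkbp7 at 84.5 ± 38.5 and 166 ± 77.3 (adjusted p = 0.342). DESeq2 called Serpinh1, the 1 gene of the 8 with an unadjusted p under 0.05, and edgeR and limma-voom called 0. Copper delivery genes (0 of 4) and genes of iron, ascorbate and oxoglutarate supply (0 of 6) did not pass either. In the first, the copper importer Slc31a1 was at 1583 ± 662 and 1125 ± 103 (adjusted p = 0.457), and Atp7a, the pump that loads copper into secreted enzymes, at 297 ± 165 and 497 ± 67.3 (adjusted p = 0.494). In the second, the iron transporter Slc11a2 was at 1225 ± 211 and 1015 ± 348 (adjusted p = 0.575), and the transferrin receptor Tfrc at 7566 ± 3747 and 4936 ± 2486 (adjusted p = 0.607). In the glycosylation, copper and iron lists 0 genes had an unadjusted p under 0.05, and edgeR, DESeq2 and limma-voom called 0.

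Of 23 hypoxia response genes 0 passed, with a median log2 fold change of -0.07. Mxi1, a Myc antagonist, averaged 644 ± 209 in KPC and 1181 ± 173 in KPCAf/f, in normalized counts and without overlap (limma adjusted p = 0.105), and Pfkfb4, a regulator of glycolysis, at 122 ± 45.0 and 255 ± 109 (adjusted p = 0.227). An unadjusted p under 0.05 was reached by 3 of the 23, DESeq2 called 2 (Mxi1 and Car9), and edgeR and limma-voom called 0. Car9, carbonic anhydrase IX, averaged 289 ± 429 against the lower 18.7 ± 7.99 of KPCAf/f (log2 fold change -2.33, limma adjusted p = 0.327). The mean log2 level of the list was 9.80 to 10.17 in KPCAf/f lines, inside the KPC range of 9.44 to 10.78.

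Of the substrates, several fibrillar chains rose and no collagen IV gene passed. Of 9 tested fibrillar collagen genes, 6 rose in KPCAf/f, and 4 of these 6 are among the genes that could differ in that direction alone. Besides Col1a1, Col1a2 and Col3a1, the 6 were Col5a2, a chain of type V collagen (KPC 20.9 ± 25.5, KPCAf/f 4154 ± 4134, limma adjusted p = 0.00174), Col5a3 (0.619 ± 0.568 and 140 ± 195, adjusted p = 0.00991) and Col11a1, a chain of type XI collagen (2.79 ± 3.0 and 828 ± 1090, adjusted p = 0.00777). Col5a3 and Col11a1 lost their calls with limma-voom (adjusted p = 0.0754 and 0.176), and Col1a2 with limma-voom and DESeq2. Col27a1, a fibrillar chain of cartilage, averaged 614 ± 320 against 195 ± 237 in KPCAf/f (log2 fold change -2.68, limma adjusted p = 0.263), with 4 KPCAf/f lines below every KPC line. None of 4 tested collagen IV genes passed. Col4a1 was at 6553 ± 1991 and 5686 ± 3105 (adjusted p = 0.696), Col4a5 at 287 ± 203 and 1345 ± 734 (adjusted p = 0.109), and Col4a6 at 8.35 and 210 on average (adjusted p = 0.274). Both of these were called by DESeq2 and neither by edgeR or limma-voom, and 2 of the 4 had an unadjusted p under 0.05.

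Per kilobase, the fibrillar collagen genes summed to 119 to 317 in KPC lines and to 2133 to 9308 in KPCAf/f lines. With longest transcripts in place of all exons the A1693 sum was 18545. P4ha1 and P4ha2 together summed to 196 to 564 and to 304 to 875. Fibrillar collagen transcript per unit of P4ha1 and P4ha2 transcript was thus 0.755 ± 0.468 in KPC and 7.87 ± 3.37 in KPCAf/f (n = 5 each), and lowest among KPCAf/f lines in A3992 at 2.80. With longest transcripts the means were 0.706 and 9.81, and A1693 stood at 19.0. Per unit of lysyl oxidase transcript it was 0.390 ± 0.152 in KPC and 3.26 ± 1.64 in KPCAf/f. The collagen IV genes, also substrates, are not in these ratios. Per kilobase they summed to 1510 ± 445 in KPC and 1519 ± 811 in KPCAf/f. The ratios are of transcript levels, with no measure of protein or enzyme activity.

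**Figure D5:**
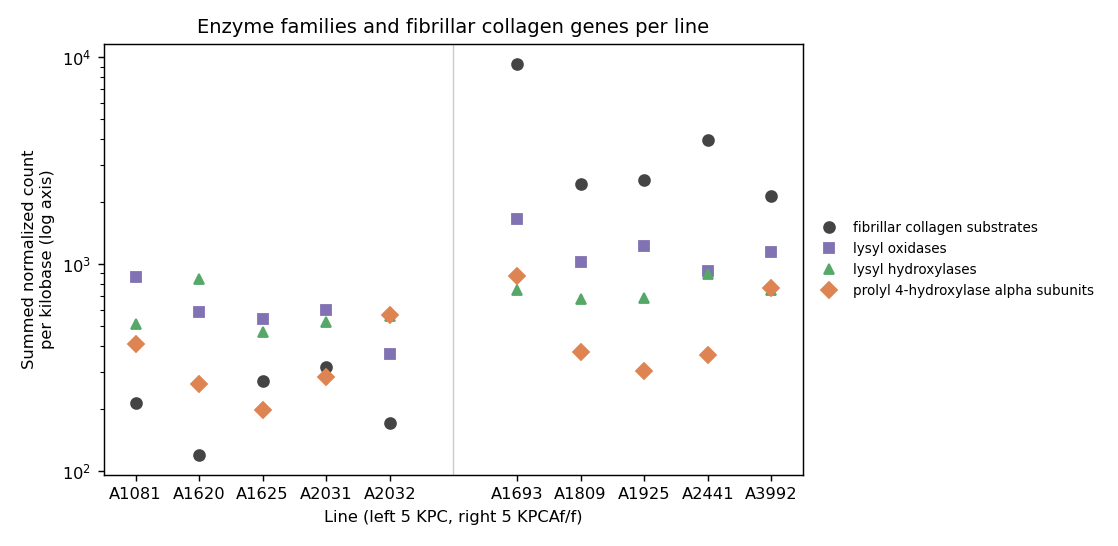
Summed normalized count per kilobase (log axis) of fibrillar collagen genes and of the 3 enzyme families in each line, KPC on the left and KPCAf/f on the right. Fibrillar collagens are below the lysyl oxidase sum in each KPC line and above it in each KPCAf/f line, from 2133 in A3992 to 9308 in A1693. The hydroxylase sums of the genotypes overlap.

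Of 6 tested genes of procollagen processing, proteinases and their enhancers, 2 rose, and 5 had an unadjusted p under 0.05. Adamts2, which removes the amino-terminal propeptide, averaged 1.09 ± 1.05 in KPC and 207 ± 218 in KPCAf/f (normalized counts, limma adjusted p = 0.00539, lost with limma-voom and with a filter on the mean), and its relative Adamts14 had 5.64 ± 8.57 and 184 ± 124 (adjusted p = 0.00395). Bmp1, which cleaves carboxy-terminal propeptides and activates Lox, was at 944 ± 457 and 2336 ± 1274 (adjusted p = 0.212). Of the enhancers of that cleavage, Pcolce was at 3250 ± 2645 and 9156 ± 4609 (log2 fold change 1.61, limma adjusted p = 0.266). Pcolce2 lay the other way at 866 ± 531 and 299 ± 244 (log2 fold change -1.70, limma adjusted p = 0.183), with 4 KPCAf/f lines below every KPC line. Of 5 tested proteins of elastic fibres and lysyl oxidase targeting, 4 rose, of which Fbln5 could differ in that direction alone. Fbln5, which tethers Loxl1 to elastin, had 1.29 ± 1.85 and 285 ± 226 (adjusted p = 0.00114). Fn1, fibronectin, a known scaffold for Lox, had 4339 ± 1882 and 37427 ± 19286 (adjusted p = 0.00731). Fbn1 also rose (adjusted p = 0.000272). Bgn, a proteoglycan, had 3.97 to 16.8 in 4 KPC lines, 8061 in A1081 and 4842 to 27175 in KPCAf/f (adjusted p = 0.0398), a call lost in 11 of 22 other settings. Eln, the elastin gene itself, had 0 reads in KPC and at most 6.75 normalized counts in KPCAf/f, so that no more than trace elastin transcript stood beside Lox, Loxl1 and Fbln5.

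Some markers of fibroblasts and of pericytes and smooth muscle moved with the lysyl oxidases. Of 7 tested fibroblast markers of 11, 5 rose in KPCAf/f, and 4 of these (Pdgfrb, Col6a3, Mfap5 and Ogn) had passed the filter only through KPCAf/f and could differ in that direction alone. The receptor Pdgfrb averaged 0.667 ± 0.623 against 972 ± 861 in KPCAf/f (limma adjusted p = 3.95e-05), and Pdgfra 24.2 ± 19.4 and 1641 ± 1471 (adjusted p = 0.00504). The collagen VI chain Col6a3 was at 1.05 ± 1.70 and 308 ± 381 (adjusted p = 0.00975), and the microfibril gene Mfap5 at 0.265 ± 0.592 and 37.3 ± 23.5 (adjusted p = 0.0017). The 11 markers summed to 2291 to 6124 normalized counts in KPC lines and 9510 to 20398 in KPCAf/f lines, and without Gsn, the actin-severing gelsolin gene, to 22.4 to 884 and 1731 to 7682. Lum, Fap and Ogn had 0 reads in KPC. In KPCAf/f, Ogn was at 47.5 to 4769, Dcn at 2.46 to 182, Lum at 0.843 to 126 and Fap at 0 to 4.5. A1925, with the most Lox, had 613 of Ogn and 0.843 of Lum, while A1809, with the least, had 47.5 and 2.46. Of 3 tested pericyte and smooth muscle markers of 6, 2 rose, Acta2 (14.8 ± 24.5 and 1518 ± 1287, adjusted p = 0.00883) and Cspg4 (10.9 ± 18.8 and 201 ± 73.0, adjusted p = 0.00991). The 6 summed to 14.4 to 133 and 438 to 3584. Leukocyte markers (0 of 3 tested of 7), endothelial markers (0 of 1 of 5) and acinar markers (0 of 1 of 6) did not pass, with sums of 827 to 1657 and 403 to 2401, of 7.22 to 438 and 8.10 to 668, and of 31.8 to 180 and 4.91 to 120, where Adgre1 and Lyz2 had 0 reads in KPC and Prss1 and Pnlip 0 in every line. In these 3 lists 0 genes had an unadjusted p under 0.05, and edgeR, DESeq2 and limma-voom called 0. Of 10 epithelial and pancreatic markers 0 passed (sums of 182341 to 374518 and 6886 to 135406), though 5 had an unadjusted p under 0.05 and DESeq2 called 2, Krt18 and Muc1. Without A1693, the line with the lowest epithelial levels, the log2 fold changes of Lox, Loxl1 and Loxl3 were 9.02, 6.08 and 4.27, each past the threshold. That setting cannot address other cells, because fibroblast markers without Gsn summed to at least 1731 in every KPCAf/f line. The part of other cells in the Lox, Loxl1 and Loxl3 values was not tested.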

How the data were processed

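The submitters' processing notes name STAR 2.5.2b as well as bcl2fastq 1.8.4 and Trimmomatic 0.36, then DESeq2 1.14.1 and the featureCounts program of Subread 1.5.0p3. They list the builds GRCm38.p5 and mm9 without a role. For counting, the annotation and strand setting were not given in the sources used here. What the authors deposited is a non-negative signal per gene, read counts divided by DESeq2 size factors. Dividing by the value of 1 read gave whole reads (within 0.001) for 100.0% of values in each library. Two-sided tests used the trend option of limma 3.58.1 in R 4.3.3, on log2 of the normalized count plus 1, over genes with at least 10 normalized counts in at least 5 of the 10 lines, with Benjamini-Hochberg adjustment over all of them. Exonic lengths and coordinates came from GENCODE M21, which gave a length for 95.1% of symbols, and promoters from RefSeq (5 of the 10 members matched). The longest stretch shared between transcripts of any 2 members was 47 bases (Loxl2 and Plod3), and 32 within a family (Lox and Loxl1). Other settings used limma-voom, edgeR 4.0.16 and DESeq2 1.42.0 (all on recovered reads), other pseudocounts, filters and scalings, a length correction and left-out lines. Scripts were tested on simulated data. The text names the 10 members, and of each other list, markers included where any were called, the called genes or otherwise 2 with the smallest p. Added after their values were seen were P4hb, P4ha3, Bmp1, Pcolce2, Col27a1, Col4a1, Eln, Car9, Krt18, Muc1, Gsn, Dcn, Mcam, Rgs5, Myh11, Des, markers at 0 and overlapping genes. Members and lists were chosen with earlier results of these data known. Figures were drawn with matplotlib 3.10.9.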

Additional observations from a re-analysis of the deposited data

How the results depend on the processing

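Lox and Loxl1 stayed past the threshold under all 22 other settings. The log2 fold changes of the 10 members kept their side of the threshold, and their direction where the rounded main value had one, in 216 of 220 cases. The exceptions were Loxl3 with limma-voom (4.80, adjusted p = 0.0660), Plod1 with array weights (1.01, adjusted p = 0.0453), and, without KPC line A1081, Plod2 (2.19, adjusted p = 0.0187) and Plod3 (-0.013, reversed). P4ha2, at -0.00097 in the main fit, was counted as having no direction. Its log2 fold change lay on both sides of 0 over the settings, from -0.23 to 0.25. Members called higher numbered 3 to 4 and members called lower 0 with 1 line left out. Over all genes, the main 178 higher and 51 lower calls became 109 and 22 with a mean of at least 100, 403 and 183 with array weights, 76 and 29 with limma-voom and 521 and 210 with DESeq2, and edgeR called 27 lower. With 1 line left out, 122 to 227 were higher and 24 to 91 lower (31 without A1081, 32 without A1620, 24 without A1625, 28 without A2031, 25 without A2032, 91 without A1809 and 30 without either A1925 or A2441). Fewer genes entered the test under the filter on the mean, and the cause of the other shifts was not tested. The P4ha2 share became 41.0% in KPC and 29.9% in KPCAf/f with longest transcripts, since its summed exons are longer. No paired analysis was possible because the labels give no replicate numbers that link lines of the genotypes. Depth limits Lox and Loxl1 in KPC, which rest on 12 and 22 reads.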
